A study of Mus musculus with 12 samples.

Results

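ADAMTS proteases were followed by bulk RNA-seq in Pdgfra+ mesenchymal cells of the mouse lung. The 10 members were the rows named *Adamts1*, *Adamts2*, *Adamts4*, *Adamts5*, *Adamts8*, *Adamts9*, *Adamts10*, *Adamts12*, *Adamts14* and *Adamts15*, taken by gene name from a table of 40760 genes, and all 10 were found. The study set mice carrying a knockout-first *Pear1* allele (*Pear1-/-*) beside wild-type (*WT*) mice, and bleomycin (bleo), a drug that scars the lung, beside vehicle. Its purpose was to learn how loss of *Pear1*, which encodes a cell-surface receptor, alters lung mesenchymal cells in fibrosis. CD140a+ cells of lungs from male mice were collected by flow cytometry, and 12 libraries were made. *WT* and *Pear1-/-* mice given vehicle and *WT* and *Pear1-/-* mice given bleo made up 4 groups of 3 libraries. All mice were of the C57BL/6 strain background. The *Pear1-/-* allele traps splicing with a cassette in an intron of *Pear1* and acts in every cell of the body. The study's methods state young adult mice for experiments in general and give bleo as an aerosol into the trachea, at more than 1 dose. Which dose and day apply to these libraries and how many mice stand behind each are not given in the sources used here. p-values therefore measure the spread between libraries, which may be technical.

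ADAMTS proteins are secreted zinc metalloproteases that carry thrombospondin repeats, and they cut proteins of the extracellular matrix. They are made as proenzymes, and proprotein convertases such as furin remove the propeptide. By substrate the members fall into a group that cleaves aggrecan and versican, large proteoglycans that hold water in the matrix (*Adamts1*, *Adamts4*, *Adamts5*, *Adamts8*, *Adamts9* and *Adamts15*), and a group that trims the amino-terminal propeptide of fibrillar procollagens before fibrils assemble (*Adamts2* and *Adamts14*). *Adamts10* is bound to fibrillin microfibrils, and *Adamts12* was described as a protease of cartilage oligomeric matrix protein. In lung, fibroblasts are a known source of several of these enzymes.

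The libraries held between 6702948 and 10447101 counted reads. *WT* vehicle replicates 1 and 3 had 25994 and 26625 genes above 3 counts, and the other 10 libraries had 17092 to 20792. Chi-square per degree of freedom between the counts of a pair of libraries, which is 1 for counting noise alone, was between 1.37 and 1.51 within *WT* bleo and between 1.48 and 5.46 within *Pear1-/-* vehicle. Replicates 1 and 3 of *WT* vehicle gave 1.68, replicate 2 gave 25.2 and 26.0 with them, and replicate 2 gave 1.81 to 2.92 with the libraries labelled *Pear1-/-* vehicle. That library lay nearer to the *Pear1-/-* vehicle mean than to the mean of its own 2 partners for 8 of the 10 members, all but *Adamts2* and *Adamts10*. Labels were kept as deposited, and the members' results in *WT* after bleo, between the vehicle groups and for the interaction were also fitted without replicate 2 and with replicate 2 as the only *WT* vehicle library. In the latter fit *WT* vehicle was 1 library, assumed to vary like those of the other groups, so its p-values hold no spread of *WT* vehicle itself. *Pear1* itself differed by -0.08 on the log2 scale between the vehicle groups (edgeR, adjusted p = 0.47). The *WT* bleo libraries held 239 to 266 normalized counts of it and the *Pear1-/-* bleo libraries 344 to 372, a log2 difference of 0.48 (adjusted p = 0.00012). Its counts therefore do not check the genotype labels, and *Pear1-/-* here stands for the libraries labelled so.

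Pairs of members lie side by side in the genome (GRCm38). *Adamts1* spans chr16:85793827-85803113 and *Adamts5* chr16:85856173-85901828, both on the minus strand and 53060 bases apart. *Adamts15* (chr9:30899155-30922452, minus strand) and *Adamts8* (chr9:30942562-30963838, plus strand) start 20110 bases apart and point away from each other. RefSeq's table of start sites (GRCm38.p6) held 5 of the 10 members, *Adamts1*, *Adamts2*, *Adamts9*, *Adamts12* and *Adamts14*. Of these, *Adamts1* had the most counts and, with all libraries, the largest fall after bleo in *WT* (log2 -1.73), although without *WT* vehicle replicate 2 *Adamts9* fell more (-1.69 against -1.60). *Adamts12* and *Adamts14* had the largest rises after bleo in *Pear1-/-*, so the 250 bases before their start sites are printed, 5′ to 3′ along the gene's own strand. They cover chr16:85803114-85803363 on the minus strand, chr15:11064523-11064772 on the plus strand and chr10:61273420-61273669 on the minus strand. Capitals mark a GC box (GGGCGG, or CCGCCC where it is read on the other strand) or a TATA box (TATAAA).
Adamts1: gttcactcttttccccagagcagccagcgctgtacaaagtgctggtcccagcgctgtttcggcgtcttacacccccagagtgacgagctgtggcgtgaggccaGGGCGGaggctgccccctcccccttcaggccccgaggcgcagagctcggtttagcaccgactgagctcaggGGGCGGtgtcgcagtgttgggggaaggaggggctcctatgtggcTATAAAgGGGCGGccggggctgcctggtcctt
Adamts12: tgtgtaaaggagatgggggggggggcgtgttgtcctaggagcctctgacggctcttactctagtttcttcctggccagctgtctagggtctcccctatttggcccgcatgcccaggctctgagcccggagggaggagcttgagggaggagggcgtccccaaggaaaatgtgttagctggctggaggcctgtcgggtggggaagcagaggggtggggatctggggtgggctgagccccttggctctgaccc
Adamts14: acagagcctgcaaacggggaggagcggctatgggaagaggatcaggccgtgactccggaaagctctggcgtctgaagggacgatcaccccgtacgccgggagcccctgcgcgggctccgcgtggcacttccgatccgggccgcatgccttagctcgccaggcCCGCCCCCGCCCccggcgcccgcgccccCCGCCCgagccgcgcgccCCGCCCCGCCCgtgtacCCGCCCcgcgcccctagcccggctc

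The *Adamts1* stretch holds a TATA box from 32 to 27 bases before the start and GC boxes beginning 147, 76 and 25 bases before it. The *Adamts14* stretch holds 6 GC boxes, all read on the other strand and all within the last 88 bases, and the pair beginning 42 and 37 bases before the start overlaps. No motif searched was found in the *Adamts12* stretch. GC content was 65.6% for *Adamts1*, 63.2% for *Adamts12* and 76.4% for *Adamts14*, against a median of 52.4% over 32851 mouse promoters of the same length. Both strands were searched, and among those promoters a GC box was present in 32.742%, a TATA box in 12.368%, the AP-1 motif TGANTCA in 6.749%, the TEAD motif GGAATG in 12.642%, the E-box CACCTG in 17.22% and the SMAD motif GTCTAGAC in 0.167%. None of the last 4 was found before any of the 5 members with a start site in the table. A match of letters is a description and not a binding site.

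ADAMTS transcripts were lower after bleo than after vehicle in *WT* cells, while in the libraries labelled *Pear1-/-* part of the family was lower and the rest was higher. Summed over the 10 members, normalized counts after vehicle were 14791 to 15632 in *WT* and 14938 to 16617 in *Pear1-/-*, and after bleo 5804 to 6019 in *WT* and 9799 to 9914 in *Pear1-/-*. With edgeR's quasi-likelihood test, adjusted over 17418 genes and called at an adjusted p under 0.05, all 10 members were lower in *WT* bleo than in *WT* vehicle (8 to 10 in 19 other fits, as *Adamts4*, *Adamts12* or both lost the call in most of them), where 36.6% of all genes tested were lower and 68% were called in either direction. In *Pear1-/-* cells 6 members were lower and 4 were higher after bleo, against 33.4% and 28.9% of all genes and 62.3% in either direction. After bleo, 8 members were higher in *Pear1-/-* than in *WT*, none was lower, and *Adamts9* and *Adamts10* did not pass, against 22.1% of all genes higher, 23.9% lower and 46% in either direction. Between the vehicle groups no member passed, where 4.5% of all genes did, a count that depends on the *WT* vehicle libraries as given further on. With a fold change over 2 required as well, 6 members were lower in *WT* bleo (23.5% of all genes), 3 were lower and 1 was higher in *Pear1-/-* bleo (19.4% and 8.38%), and 2, *Adamts12* and *Adamts14*, were higher in *Pear1-/-* than in *WT* after bleo (6.26%). With an adjusted p under 0.01, a threshold chosen after seeing the data, 8 members were lower in *WT* bleo (30.7% of all genes), 4 were higher and 6 lower in *Pear1-/-* bleo (23.7% and 26.7%), 7 were higher in *Pear1-/-* after bleo (16%), and 6 had an interaction above 0 (11.2%), the test of which is described further on. Without overlap of the 3 libraries on each side, 9 members were lower in *WT* bleo (36.7% of all genes), 6 were lower and 4 higher in *Pear1-/-* bleo (37.8% and 33.2%), and 8 were higher in *Pear1-/-* after bleo (31.3%). The median log2 fold change of the members was -1.22 in *WT* after bleo, -0.68 in *Pear1-/-* after bleo, 0.82 between the genotypes after bleo and -0.02 between them after vehicle, beside -0.07, -0.05, -0.01 and -0.00 over all genes tested. The 4 comparisons share groups, so they are not independent of each other.

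**Figure D1:**
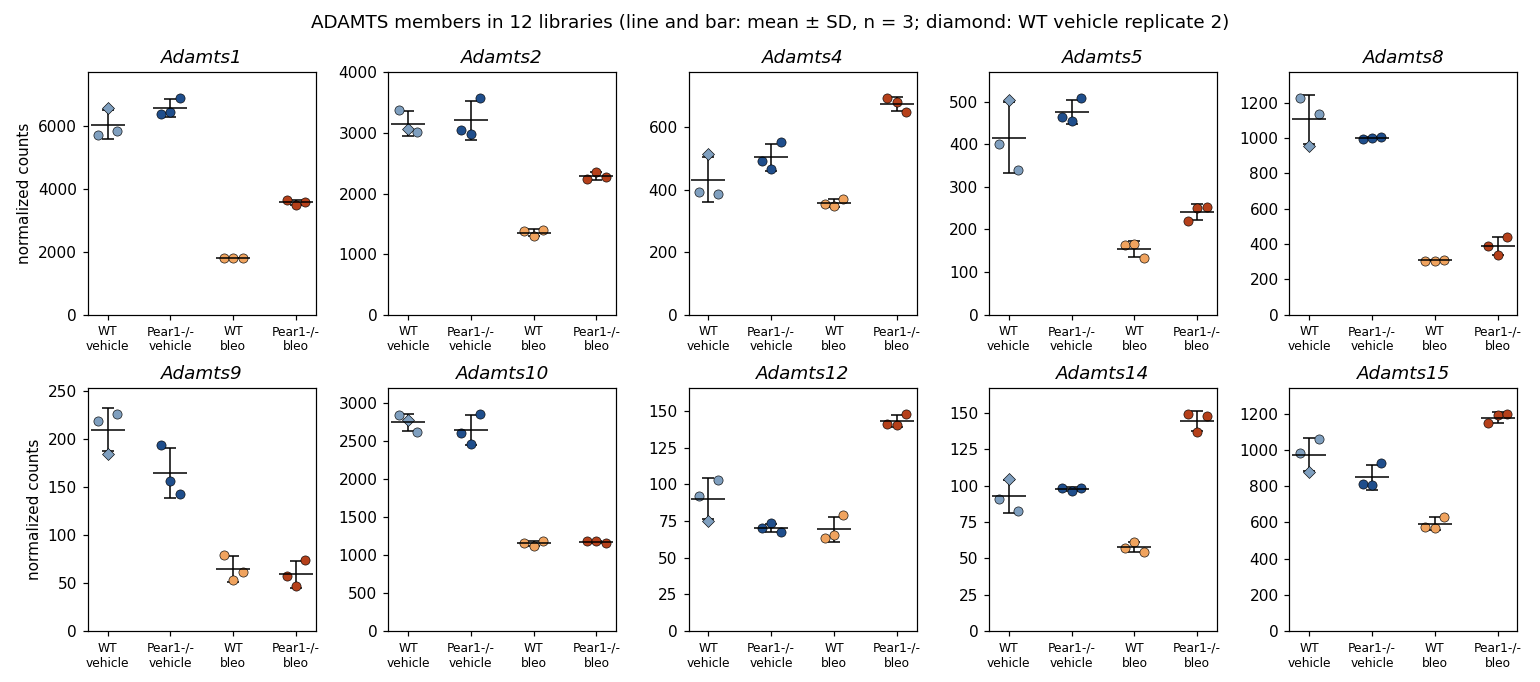
Normalized counts (y axis, linear from 0) of each of the 10 members in every library, by group (x axis). Points are libraries, lines and bars are the mean ± SD of 3 libraries, and the diamond is *WT* vehicle replicate 2. In 8 panels, all but *Adamts9* and *Adamts10*, the 3 *Pear1-/-* bleo libraries lie above the 3 *WT* bleo libraries.

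The plot of normalized counts by library shows 3 shapes. *Adamts8*, *Adamts9* and *Adamts10* dropped after bleo in both genotypes to levels at or near each other. *Adamts1*, *Adamts2* and *Adamts5* dropped in both genotypes and stayed higher in *Pear1-/-* bleo. *Adamts4*, *Adamts12*, *Adamts14* and *Adamts15* were higher in *Pear1-/-* bleo than in every other group.

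*Adamts1*, an early-described aggrecan- and versican-cleaving member, carried the most counts. Its normalized counts after vehicle were 5719, 6580.3 and 5823 in *WT* and 6381, 6432 and 6887 in *Pear1-/-*, and after bleo 1797, 1816 and 1796 in *WT* and 3641, 3477 and 3582 in *Pear1-/-*. The bleo groups overlapped neither each other nor the vehicle groups, and *WT* bleo was the lowest. *Adamts1* fell by 1.73 on the log2 scale after bleo in *WT* (SE 0.068, adjusted p = 8.64e-12) and by 0.88 in *Pear1-/-* (SE 0.066, adjusted p = 2.54e-08). After bleo it was 1.96-fold higher in *Pear1-/-* than in *WT* (log2 0.97, SE 0.067, adjusted p = 1.84e-08).

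*Adamts8*, an aggrecan-cleaving member known for high expression in lung, had normalized counts of 1227, 953 and 1136 after vehicle in *WT* and of 994, 1003 and 1004 in *Pear1-/-*. After bleo the *WT* libraries had 306, 306 and 311 and the *Pear1-/-* libraries 391, 336 and 442. With all libraries it showed the largest fall of the 10 members in *WT*, 3.56-fold (log2 -1.83, SE 0.104, adjusted p = 5.96e-10), and fell 2.56-fold in *Pear1-/-* (log2 -1.36, SE 0.101, adjusted p = 2.21e-08). The bleo groups did not overlap, and the difference between them was 0.33 on the log2 scale (SE 0.105, adjusted p = 0.0189). With replicate 2 as the only *WT* vehicle library its fall in *WT* was -1.62, behind *Adamts1* (-1.85) and *Adamts5* (-1.69). The call between the bleo groups was lost when any of *WT* bleo replicates 1, 2 and 3 or *Pear1-/-* bleo replicates 1 and 3 was left out, with adjusted p up to 0.129.

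*Adamts9* is a versican-cleaving member. After vehicle, normalized counts of *Adamts9* were 218, 184 and 226 in *WT* and 193, 156 and 143 in *Pear1-/-*, and after bleo they were 79.0, 53.0 and 61.8 in *WT* and 56.8, 46.4 and 73.4 in *Pear1-/-*. All 6 bleo libraries lay below all 6 vehicle libraries, and the bleo groups overlapped. *Adamts9* fell by 1.67 in *WT* (SE 0.177, adjusted p = 7.97e-07) and by 1.48 in *Pear1-/-* (SE 0.179, adjusted p = 4.31e-06) on the log2 scale. Between the genotypes after bleo the difference was -0.16 (95% interval -0.59 to 0.27, adjusted p = 0.542). Exons of *Adamts9* share 1381 bases with *A730049H05Rik* and 424 bases with *Gm15737* on the opposite strand, and the library kit does not mark strand, so their reads cannot be told apart there. Those genes had at most 43 and 14 counts in any library.

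*Adamts5* is a main aggrecanase of joint cartilage. Libraries of the vehicle groups had *Adamts5* normalized counts of 401, 504 and 340.0 in *WT* and 464, 455 and 509 in *Pear1-/-*, and after bleo they were 163, 166 and 134 in *WT* and 219, 251 and 254 in *Pear1-/-*. The 2 vehicle groups overlapped and every bleo library was lower, with *WT* bleo below *Pear1-/-* bleo. It fell 2.67-fold in *WT* (log2 -1.42, SE 0.131, adjusted p = 1.74e-07) and 1.96-fold in *Pear1-/-* (log2 -0.97, SE 0.122, adjusted p = 6.46e-06). After bleo it was 1.55-fold higher in *Pear1-/-* (log2 0.63, SE 0.134, adjusted p = 0.00126).

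*Adamts4*, the other main aggrecanase, had normalized counts of 394, 515 and 386 after vehicle in *WT* and of 491, 468 and 551 in *Pear1-/-*. After bleo the *WT* libraries had 355, 348 and 372 and the *Pear1-/-* libraries 693, 679 and 648, the highest of all groups without overlap. *Adamts4* rose 1.34-fold after bleo in *Pear1-/-* (log2 0.43, SE 0.099, adjusted p = 0.00156) and was 1.87-fold higher in *Pear1-/-* than in *WT* after bleo (log2 0.90, SE 0.101, adjusted p = 3.35e-06). Its fall in *WT* was small, -0.26 on the log2 scale (SE 0.103, adjusted p = 0.0353), and did not pass in 13 of 19 other settings. It was -0.05 (adjusted p = 0.63) without *WT* vehicle replicate 2 and -0.51 (adjusted p = 6.94e-05) with replicate 2 as the only *WT* vehicle library. Leaving out any of the *WT* bleo, *Pear1-/-* bleo or *Pear1-/-* vehicle libraries also lost the call, with log2 values between -0.25 and -0.20.

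*Adamts15* is a versican- and aggrecan-cleaving member. For *Adamts15*, normalized counts after vehicle were 981, 881 and 1064 in *WT* and 812, 808 and 927 in *Pear1-/-*, and after bleo they were 577, 570.1 and 633 in *WT* and 1147, 1193 and 1198 in *Pear1-/-*. The *WT* bleo libraries were the lowest and the *Pear1-/-* bleo libraries the highest, with no overlap between these and any vehicle library. It fell 1.63-fold in *WT* (log2 -0.71, SE 0.085, adjusted p = 3.37e-06) and rose 1.39-fold in *Pear1-/-* (log2 0.48, SE 0.083, adjusted p = 0.000152). After bleo it was 1.97-fold higher in *Pear1-/-* (log2 0.98, SE 0.085, adjusted p = 2.23e-07). Its divergent neighbour *Adamts8* thus moved the other way from vehicle in *Pear1-/-*, while the tandem neighbours *Adamts1* and *Adamts5* fell in both genotypes.

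*Adamts2* is the main procollagen N-proteinase of skin. After vehicle, normalized counts of *Adamts2* were 3388, 3067 and 3014 in *WT* and 3052, 2989.9 and 3581 in *Pear1-/-*, and after bleo they were 1379, 1296 and 1397 in *WT* and 2239, 2362 and 2269.5 in *Pear1-/-*. The vehicle groups overlapped, and *Pear1-/-* bleo lay between them and *WT* bleo. *Adamts2* fell 2.31-fold in *WT* (log2 -1.21, SE 0.081, adjusted p = 4.44e-09) and less in *Pear1-/-* (log2 -0.48, SE 0.080, adjusted p = 9.63e-05), and was 1.67-fold higher in *Pear1-/-* than in *WT* after bleo (log2 0.74, SE 0.080, adjusted p = 2.42e-06).

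*Adamts14* is a close relative of *Adamts2* with the same kind of substrate. Libraries of the vehicle groups had *Adamts14* normalized counts of 91.0, 104.5 and 82.4 in *WT* and 98.5, 96.5 and 98.2 in *Pear1-/-*, and after bleo they were 56.9, 61.2 and 54.7 in *WT* and 149, 137 and 148 in *Pear1-/-*. The bleo groups lay on opposite sides of the vehicle libraries, without overlap. *Adamts14* fell 1.60-fold in *WT* (log2 -0.68, SE 0.129, adjusted p = 0.000272) and rose 1.48-fold in *Pear1-/-* (log2 0.57, SE 0.113, adjusted p = 0.000468). The difference between the genotypes after bleo, 2.48-fold, was the largest of the 10 members (log2 1.31, SE 0.121, adjusted p = 4.29e-07).

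*Adamts10* is the microfibril-associated member whose loss causes a short-stature and lens disorder. After vehicle, normalized counts of *Adamts10* were 2835, 2767 and 2618 in *WT* and 2607, 2458 and 2849 in *Pear1-/-*, and after bleo they were 1154, 1122 and 1181 in *WT* and 1181, 1178 and 1151 in *Pear1-/-*. The bleo groups overlapped, and all 6 bleo libraries lay below the vehicle libraries. It fell 2.36-fold in *WT* (log2 -1.24, SE 0.071, adjusted p = 7.38e-10) and 2.25-fold in *Pear1-/-* (log2 -1.17, SE 0.071, adjusted p = 2.23e-09). Between the genotypes after bleo the difference was 0.01 on the log2 scale, with a 95% interval of -0.14 to 0.16 (adjusted p = 0.941).

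*Adamts12* is the member first tied to cartilage oligomeric matrix protein. For *Adamts12*, normalized counts after vehicle were 92.2, 75.1 and 103.0 in *WT* and 70.1, 73.3 and 67.7 in *Pear1-/-*, and after bleo they were 63.4, 65.3 and 79.0 in *WT* and 141, 140.1 and 148 in *Pear1-/-*. The *Pear1-/-* bleo libraries stood above the other 9 libraries, which overlapped in part. *Adamts12* rose 2.03-fold after bleo in *Pear1-/-* (log2 1.02, SE 0.134, adjusted p = 1.01e-05) and was 2.05-fold higher in *Pear1-/-* than in *WT* after bleo (log2 1.03, SE 0.135, adjusted p = 1.55e-05). In *WT* the groups overlapped and the change was -0.37 (SE 0.144, adjusted p = 0.0353), which did not pass in 13 of 19 other settings. It was -0.11 (adjusted p = 0.668) with replicate 2 as the only *WT* vehicle library and -0.42 (adjusted p = 0.0156) without it. The call was also lost without any of *WT* vehicle replicates 1 and 3, *WT* bleo replicates 1 and 2, *Pear1-/-* vehicle replicates 1 and 2 and the 3 *Pear1-/-* bleo libraries, with log2 values between -0.34 and -0.25.

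The falls in *WT* of the other 8 members kept their call without *WT* vehicle replicate 2. Without it the log2 values were -1.60 for *Adamts1*, -1.16 for *Adamts2*, -1.18 for *Adamts5*, -1.86 for *Adamts8*, -1.69 for *Adamts9*, -1.17 for *Adamts10*, -0.51 for *Adamts14* and -0.71 for *Adamts15*. With it as the only *WT* vehicle library they were -1.85, -1.16, -1.69, -1.62, -1.48, -1.25, -0.84 and -0.56 in the same order, and also passed, with the spread taken from the other groups.

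**Figure D2:**
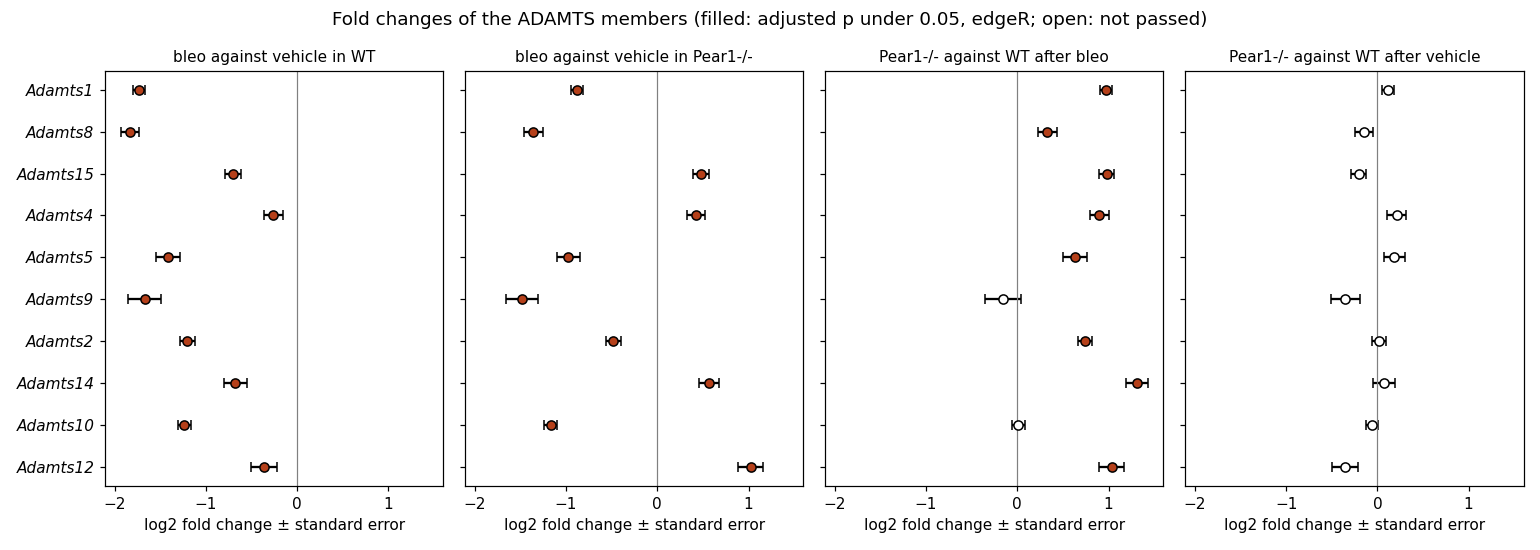
Log2 fold change ± standard error (x axis) of each member (y axis, by substrate group) in the 4 comparisons of 3 against 3 libraries. Filled points passed an adjusted p of 0.05 in edgeR's test and open points did not. In *WT* all 10 points lie below 0 after bleo, and in *Pear1-/-* the points of *Adamts4*, *Adamts12*, *Adamts14* and *Adamts15* lie above it.

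Whether the response to bleo differed between the genotypes was tested as an interaction, the response in *Pear1-/-* minus the response in *WT*. It passed for 7 of the 10 members, all above 0, where 17.9% of all genes were above 0, 19.1% below and 37% in either direction. The interaction was 1.39 on the log2 scale for *Adamts12* (SE 0.197, adjusted p = 7.18e-05), 1.24 for *Adamts14* (SE 0.171, adjusted p = 5.32e-05) and 1.18 for *Adamts15* (SE 0.119, adjusted p = 2.79e-06). It was 0.86 for *Adamts1* (SE 0.093, adjusted p = 5.77e-06), 0.72 for *Adamts2* (adjusted p = 0.000163) and 0.69 for *Adamts4* (adjusted p = 0.00162). The first 3 of these were over 2-fold above 0, as 8.61% of all genes were, while 7.06% were over 2-fold below 0. The 6 members cover the proteoglycan-cleaving and the procollagen-trimming groups and *Adamts12*. The interaction of *Adamts8*, 0.48 (adjusted p = 0.0169), did not pass in 10 of 18 other settings, with adjusted p up to 0.107. Each *WT* bleo library, *Pear1-/-* bleo replicates 1 and 3 and *Pear1-/-* vehicle replicates 1 and 2 were libraries whose removal lost it. It was 0.27 (adjusted p = 0.087) with replicate 2 as the only *WT* vehicle library. That of *Adamts5* was 0.44 (adjusted p = 0.0654), it was 0.19 (adjusted p = 0.268) without *WT* vehicle replicate 2, and it passed without *WT* vehicle replicate 3 (0.56, adjusted p = 0.0125) and with replicate 2 as the only *WT* vehicle library (0.73, adjusted p = 0.000154). *Adamts9* (0.19, 95% interval -0.35 to 0.74) and *Adamts10* (0.07, 95% interval -0.14 to 0.28) did not pass.

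Between the vehicle groups no member passed with all libraries in edgeR, DESeq2 or limma, and 3, *Adamts9*, *Adamts12* and *Adamts15*, had an unadjusted p under 0.05 in edgeR, as 31.6% of all genes did. The differences lay between -0.36 for *Adamts12* (95% interval -0.66 to -0.05, adjusted p = 0.113) and 0.21 for *Adamts4* (95% interval -0.01 to 0.43, adjusted p = 0.168). *Adamts12* was the member whose vehicle groups did not overlap, lower in *Pear1-/-*, as 10.9% of all genes were. Without *WT* vehicle replicate 2, 7 members passed. *Adamts1* (0.25, adjusted p = 6.03e-05), *Adamts4* (0.43, adjusted p = 4e-05) and *Adamts5* (0.43, adjusted p = 0.000165) were then higher in *Pear1-/-* vehicle. *Adamts8* (-0.17, adjusted p = 0.0354), *Adamts9* (-0.36, adjusted p = 0.0191), *Adamts12* (-0.40, adjusted p = 0.0291) and *Adamts15* (-0.20, adjusted p = 0.0131) were lower. In that fit 11258 of 20405 genes were called, and with replicate 2 as the only *WT* vehicle library 1 of 18175 genes was called and no member was. Leaving out any of the other 11 libraries gave 0 genes called in edgeR, with 2955 to 6917 genes at an unadjusted p under 0.05. The vehicle difference between the genotypes and the difference between *WT* vehicle libraries thus cannot be told apart for these 7 members.

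Levels of different genes were compared as RPKM, which divides counts by exon length and library total. In *WT* vehicle *Adamts1* was highest at 134 ± 1.82 RPKM (SD, n = 3), followed by *Adamts2* at 40.1 ± 4.56 and *Adamts10* at 39.3 ± 3.01, whose libraries overlapped, and *Adamts8* at 28.5 ± 5.48. *Adamts15* at 11.2 ± 1.82 and *Adamts4* at 10.5 ± 0.908 overlapped as well, through replicate 2 alone. In that library *Adamts15* was at 9.19 RPKM and *Adamts4* at 11.6, while in replicates 1 and 3 *Adamts15* was at 11.6 and 12.7 and *Adamts4* at 10.1 and 9.96. *Adamts5* (4.51 ± 0.573), *Adamts14* (2.1 ± 0.113), *Adamts9* (1.65 ± 0.293) and *Adamts12* (0.984 ± 0.219) came last, with no overlap between neighbours in this order. In *Pear1-/-* vehicle the order was the same except that *Adamts4* at 11.2 ± 0.808 RPKM lay above *Adamts15* at 8.75 ± 0.566, without overlap. In *WT* bleo *Adamts1* stood at 38.2 ± 0.218 RPKM, *Adamts4* at 8.36 ± 0.294 passed *Adamts8* at 7.49 ± 0.0763, and *Adamts9* was lowest at 0.482 ± 0.0985. In *Pear1-/-* bleo *Adamts1* (75.1 ± 2.08) and *Adamts2* (27.4 ± 0.673) led, *Adamts10* (15.8 ± 0.277) and *Adamts4* (15.6 ± 0.602) overlapped, and *Adamts14* (3.11 ± 0.157) lay above *Adamts5* (2.50 ± 0.185). *Adamts8* thus went from the fourth place after vehicle to the sixth in *Pear1-/-* bleo.

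**Figure D3:**
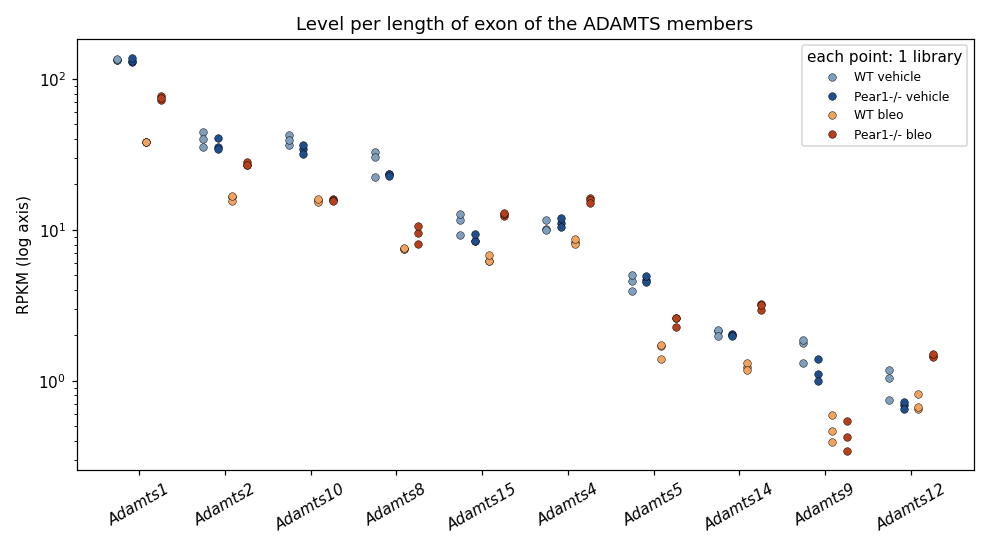
RPKM (y axis, log scale) of each member (x axis, ordered by the *WT* vehicle mean), with 1 point per library and colours for the 4 groups. *Adamts1* is highest in every group, from 38.2 RPKM in *WT* bleo to 134 in *WT* vehicle.

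The share of the sorted cells and the amount of RNA per cell cannot be told apart in bulk libraries, and the sorting gene itself differed between the groups. After vehicle *Pdgfra* was at 4565 ± 325 normalized counts in *WT* and 4165 ± 39.1 in *Pear1-/-*, and after bleo at 1360.1 ± 29.9 in *WT* and 2392 ± 18.8 in *Pear1-/-* (SD, n = 3). Summed over 12 leukocyte markers, CPM after vehicle was 2478 to 2836 in *WT* and 2789.5 to 2839 in *Pear1-/-*, and after bleo 12905 to 13098 in *WT* and 5771 to 5910.1 in *Pear1-/-*. Of those markers 11 were lower in *Pear1-/-* bleo than in *WT* bleo and none higher, the opposite of the 8 ADAMTS members. Over all genes tested, 23.9% were lower and 22.1% higher. Between the same groups 4 of 8 fibroblast markers were higher and 2 lower, 1 of 9 epithelial markers was higher and 5 lower, and 3 of 7 smooth muscle and pericyte markers were higher and 2 lower. Of 7 endothelial markers 1 was higher and 2 lower, of 5 mesothelial markers 3 were higher and 1 lower, and of 5 red cell markers 2 were higher and none lower, so a summed level can hide members that differ. Summed over 8 fibroblast markers, CPM was 2714 to 3024, 2684 to 2758, 964 to 974 and 1181 to 1188 in the same order of groups. Markers of epithelium (9 genes) summed to 1666 to 1693 CPM in *WT* bleo and 746 to 755 in *Pear1-/-* bleo, and those of smooth muscle and pericytes (7 genes) to 192 to 196 and 518 to 545. Endothelial markers (7 genes) summed to 242 to 256 and 234 to 253 CPM, red cell markers (5 genes) to 7.74 to 9.05 and 30.6 to 32.9, and mesothelial markers (5 genes) to 9.05 to 10.6 and 13.2 to 15.8. Mitochondrial genes took 3.13% to 3.28% of counts in *WT* bleo and 2.11% to 2.29% in *Pear1-/-* bleo. No marker of these lists was at or under 3 counts in every library of a group. The part of cell mixture in the members' changes was not tested.

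Members were also set against *Pdgfra* in the same library, as a description with no test. Per 1000 *Pdgfra* counts, *Adamts1*, *Adamts4*, *Adamts12*, *Adamts14* and *Adamts15* were still higher in every *Pear1-/-* bleo library than in every *WT* bleo library, where 5.61% of all genes were higher on this scale and 74.7% lower. *Adamts14* had 42.4 ± 3.26 in *WT* bleo and 60.4 ± 2.40 in *Pear1-/-* bleo, and *Adamts12* had 50.8 ± 5.13 and 59.8 ± 1.49. The other 3 were closer, with *Adamts1* at 1326 ± 35.1 and 1491 ± 24.2, *Adamts15* at 436 ± 15.6 and 493 ± 13.9, and *Adamts4* at 263 ± 3.31 and 282 ± 10.3. *Adamts2* and *Adamts5* overlapped between the bleo groups. *Adamts8* (226 ± 2.92 and 163 ± 21.2), *Adamts9* (47.5 ± 9.87 and 24.6 ± 5.55) and *Adamts10* (847 ± 8.59 and 489 ± 8.99) were lower in *Pear1-/-* bleo on this scale. In *WT*, 6 members were higher per 1000 *Pdgfra* counts after bleo than after vehicle, without overlap, and none was lower, where 77.1% of all genes were higher and 8.41% lower. *Adamts15* went from 214 ± 11.5 to 436 ± 15.6 there, so the direction of the bleo response of these 6 members in *WT* depended on the scale. These 6 were higher in every *WT* bleo library than in *WT* vehicle replicate 2 and than in replicates 1 and 3. *Adamts1* lay below replicate 2 (1569) and above replicates 1 and 3 (mean 1215) there. *Adamts5* lay above replicates 1 and 3 and *Adamts8* below them, while the *WT* bleo range of each took in replicate 2. In *Pear1-/-*, 5 members were higher and 5 lower after bleo on this scale, where 66.4% of all genes were higher and 16.6% lower. *Adamts2*, lower by the test there, was among the 5 that were higher.

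**Figure D4:**
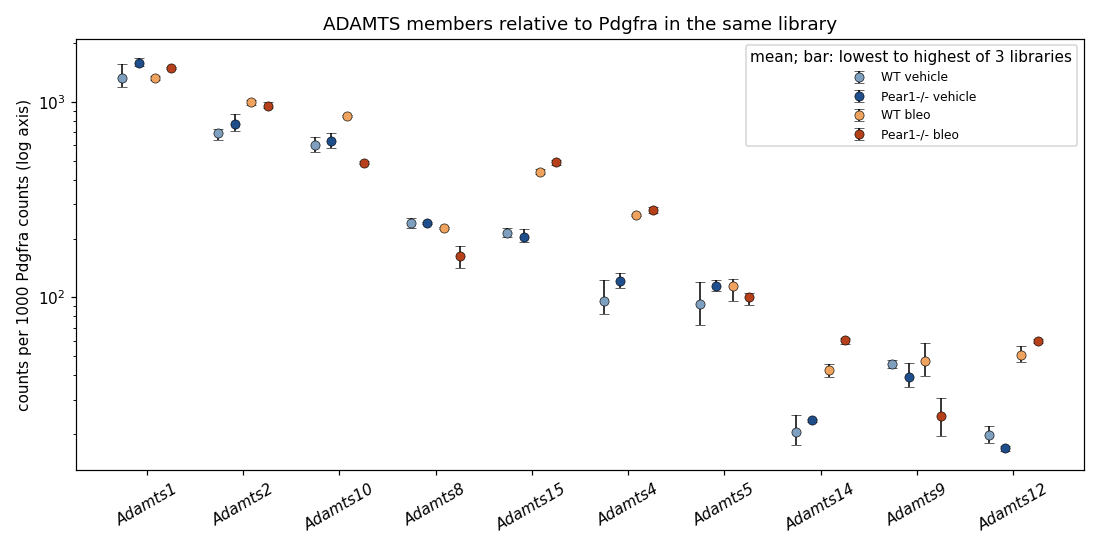
Counts of each member per 1000 counts of *Pdgfra* in the same library (y axis, log scale), by member (x axis) and group (colours). Points are means and bars run from the lowest to the highest of 3 libraries. For *Adamts10* the bleo groups lie apart, with *WT* bleo at 847 and *Pear1-/-* bleo at 489.

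The gene most like each member was sought among 10444 genes whose log2 CPM averaged 3 or more, by Pearson's r of log2 CPM over the 12 libraries. These libraries share 4 groups, so r mostly describes group means. It was 0.999 for *Adamts1* and *Cyth3*, 0.997 for *Adamts2* and *Kank2*, 0.997 for *Adamts5* and *Slc9a3r2*, 0.997 for *Adamts8* and *Runx1t1*, and 0.997 for *Adamts10* and *Ltbp4*, a gene of latent growth factor binding in microfibrils. For *Adamts9* and *Tspan8* it was 0.987, and for *Adamts4* and *Hdlbp* 0.992. It was 0.972 for *Adamts12* and the collagen VI chain *Col6a3*, 0.981 for *Adamts15* and the microfibril gene *Mfap4*, and 0.980 for *Adamts14* and *Fam101b*. There were 13 genes with r over 0.95 to *Adamts12* and 25 with *Adamts15*, against 332 with *Adamts1*, 403 with *Adamts8* and 460 with *Adamts10*.

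Among 9 other ADAMTS genes 8 were tested, with 5 lower and none higher after bleo in *WT*, and 2 higher and 5 lower in *Pear1-/-*. Over all genes tested, 36.6% were lower in *WT*, and 28.9% were higher and 33.4% lower in *Pear1-/-*. In *WT*, 6 of 9 tested were lower without *WT* vehicle replicate 2 and 3 of 8 with it as the only *WT* vehicle library, where *Adamts16* and *Adamts19*, named after their values were seen, did not pass. Between the genotypes after bleo, where 22.1% of all genes were higher and 23.9% lower, 2 were higher, 5 did not pass and 1, *Adamts13*, was lower. *Adamts13* had at most 1 count in a *Pear1-/-* bleo library, and the median log2 difference of the 8 genes was 0.04. *Adamts7*, the closest relative of *Adamts12*, was among those higher. *Adamts7* was at 78.1 ± 8.78 normalized counts after vehicle in *WT* and 72.8 ± 4.97 in *Pear1-/-*, and after bleo at 84.5 ± 10.5 in *WT* and 166 ± 14.4 in *Pear1-/-* (SD, n = 3), and its difference after bleo was 0.96 on the log2 scale (SE 0.128, adjusted p = 1.93e-05). *Adamts17* fell from 292 ± 29.1 to 56.3 ± 3.83 in *WT* and from 248 ± 18.1 to 55.6 ± 6.85 in *Pear1-/-*, and differed by -0.03 between the genotypes after bleo (adjusted p = 0.913). *Adamts3*, the remaining procollagen N-proteinase, was 0.73 higher in *Pear1-/-* on the log2 scale after bleo (adjusted p = 0.0144), with 25.1 ± 5.82 and 41.8 ± 4.20 normalized counts. All 6 ADAMTS-like genes, whose products lack the protease domain, were lower after bleo in both genotypes (in *WT*, 6 without *WT* vehicle replicate 2 and 5 with it as the only *WT* vehicle library), and 1 of them, *Adamtsl4*, was higher in *Pear1-/-* than in *WT* after bleo (log2 0.58, adjusted p = 2.79e-05). *Adamtsl2* differed there by 0.17 (adjusted p = 0.159).

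Procollagens, versican and most of the other substrates tested were higher in *Pear1-/-* than in *WT* bleo. All 5 fibrillar procollagen chains tested, of 6 listed, were over 2-fold higher in *Pear1-/-* than in *WT* after bleo, as 6.26% of all genes were. *Col1a1* had 42471 ± 36.2 and 142173 ± 3129 normalized counts (SD, n = 3; log2 1.73, SE 0.050, adjusted p = 6.6e-12), and *Col3a1* 32088 ± 260 and 72242 ± 821 (log2 1.16, SE 0.041, adjusted p = 3.77e-11). In *WT* after bleo *Col1a1* rose by 0.40 and *Col3a1* fell by 0.20 on the log2 scale (adjusted p = 3.62e-06 and 0.000467), beside the falls of *Adamts2* and *Adamts14*. Without *WT* vehicle replicate 2 these were 0.45 and -0.14 (adjusted p = 5.51e-12 and 0.00152), and with it as the only *WT* vehicle library 0.45 and -0.18. Versican (*Vcan*) was the abundant gene of the 8 lecticans and link proteins, of which 4 were tested. Between the genotypes after bleo *Vcan* was higher and *Hapln3*, a link protein gene with few counts, was lower (adjusted p = 0.0434). After bleo *Vcan* was at 332 ± 25.7 normalized counts in *WT* and 511 ± 33.5 in *Pear1-/-* (log2 0.61, adjusted p = 0.000314), and aggrecan (*Acan*) had too few counts to test. Of 11 other substrates and matrix partners 9 were higher and 1 lower in *Pear1-/-* than in *WT* after bleo, against 22.1% and 23.9% of all genes. On the log2 scale *Fn1* was at 1.03 (adjusted p = 3.65e-05), *Bgn* at 0.77 (adjusted p = 6.65e-09), *Nid2* at 1.98 (adjusted p = 1.26e-08) and *Comp* at -1.09 (adjusted p = 0.0117). Decorin (*Dcn*), a small collagen-binding proteoglycan, differed by 0.13 and did not pass (adjusted p = 0.589).

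Genes that restrain, clear, activate or modify ADAMTS enzymes did not move together. Of 13, 6 were higher and 4 lower in *Pear1-/-* than in *WT* after bleo, against 22.1% and 23.9% of all genes. *Timp3*, the main tissue inhibitor of ADAMTS enzymes, fell after bleo from 12536 ± 734 to 3013 ± 92.5 normalized counts in *WT* (log2 -2.05, adjusted p = 3.97e-13; -2.03 without *WT* vehicle replicate 2 and -1.94 with it as the only library) and from 11671 ± 73.1 to 2429 ± 10.05 in *Pear1-/-* (log2 -2.26, adjusted p = 3.14e-13). After bleo it was lower in *Pear1-/-* by 0.32 on the log2 scale (SE 0.059, adjusted p = 0.00035), where 8 members were higher. *Timp1*, which inhibits most ADAMTS enzymes weakly, was 1.49 higher (adjusted p = 1.98e-09). Of the convertases, *Pcsk5* was 1.21 higher (adjusted p = 4e-09) and *Furin* was lower, at -0.45 (adjusted p = 0.00151). *Pofut2* and *B3glct*, which place sugars on thrombospondin repeats, were 0.61 (adjusted p = 1.45e-05) and 0.87 higher (adjusted p = 5.25e-05). *Sdc4*, a cell-surface proteoglycan, was 0.32 higher (adjusted p = 0.000795). *Lrp1*, a receptor that takes up ADAMTS enzymes, did not pass in any of the 4 comparisons, with -0.01 between the genotypes after bleo (SE 0.072, adjusted p = 0.897).

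**Figure D5:**
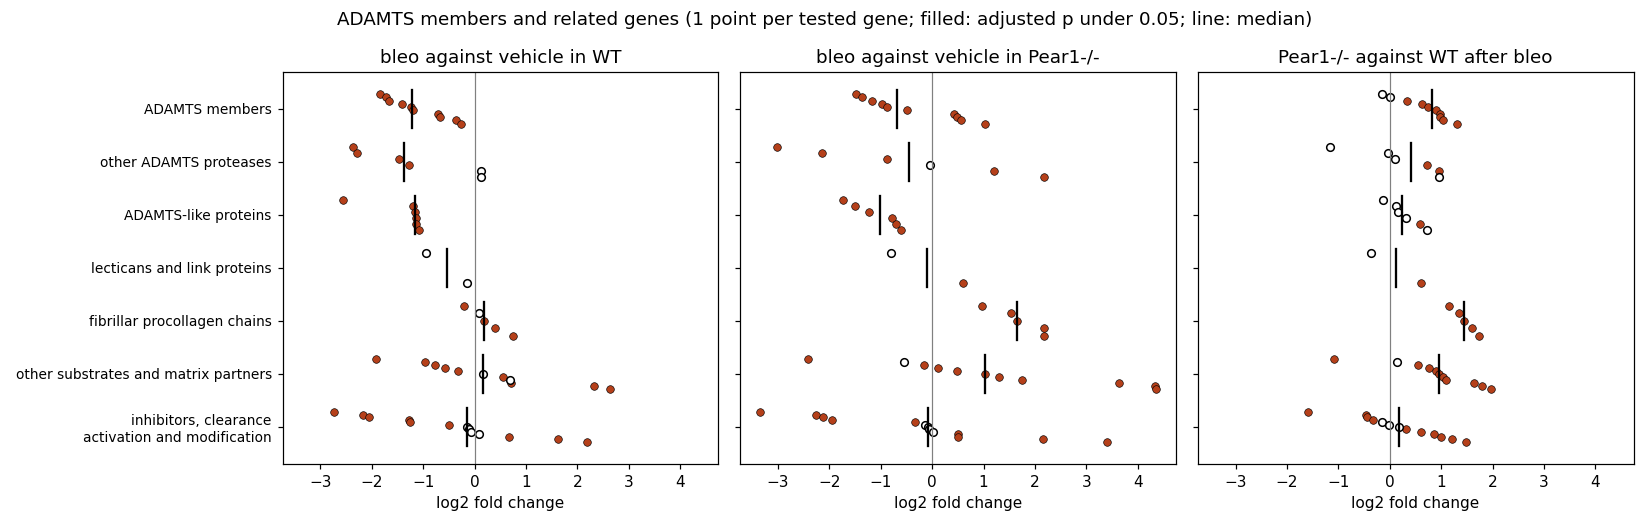
Log2 fold change (x axis) of the ADAMTS members and 6 lists of related genes (y axis) in 3 comparisons. There is 1 point per gene tested, filled where adjusted p was under 0.05, and a line at the median of the genes drawn. Of the genes tested, 4 with a group at or under 3 counts in every library (*Adamts13*, *Adamts20*, *Hapln3* and *Ncan*) are not drawn. In the panel of genotypes after bleo all 5 procollagen points lie above 1, and the members' median is 0.82.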

How the data were processed

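RNA of CD140a+ lung cells was amplified to full-length cDNA with SMART-Seq v4 and made into libraries with a kit that does not mark strand. The authors aligned reads to GRCm38 (mm10) with HISAT2, and the submitters' processing notes name FastQC. The program that counted reads is not given in the sources used here. The authors deposited whole-number read counts per gene for 12 libraries and a table of normalized signal, which is those counts divided by 1 DESeq2 size factor per library on a linear scale. The methods name a variance stabilizing transformation, which the values do not show.

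Groups came from the labels. Counts were tested with edgeR 4.0.16 (R 4.3.3; TMM scaling, filterByExpr, quasi-likelihood F test, 1 mean per group, two-sided, Benjamini-Hochberg over 17418 genes), and a gene was called at an adjusted p under 0.05. The standard error is the log2 fold change divided by the square root of F. The test was also run on simulated counts, the outcome of which is not given here. Alternatives were DESeq2 1.42.0, its size factors, limma 3.58.1 on log2(normalized value + 1), no filter, a replicate block, fits of the compared groups alone, leaving out each library, a fold change over 2 as well and, added after seeing the data, an adjusted p under 0.01, *WT* vehicle replicate 2 alone and ratios to *Pdgfra*. RPKM used exon lengths of GENCODE M21. A floor of 3 counts covers counting error only. The members, related lists and motifs were chosen with earlier results of these data known. The genes named are all members, at least the 2 genes with the most counts of each related list, some of those past a fold of 2, and the gene most like each member. *Pofut2*, *B3glct*, *Lrp1* and *Acan* fall outside this rule and were chosen after their values were seen. No protein sequences were used here.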

Additional observations from a re-analysis of the deposited data

Results flagged for a closer look

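The response to bleo differed between the genotypes, by the interaction test, for 7 members. The response in the libraries labelled *Pear1-/-* minus that in *WT* was 0.86 for *Adamts1*, 0.72 for *Adamts2*, 0.69 for *Adamts4*, 0.48 for *Adamts8*, 1.39 for *Adamts12*, 1.24 for *Adamts14* and 1.18 for *Adamts15* on the log2 scale. For *Adamts14* and *Adamts15* the response was below 0 in *WT* and above 0 in *Pear1-/-*, and passed the test in each genotype, with every bleo library on its side of every vehicle library of the same genotype. Without *WT* vehicle replicate 2 the interaction was 0.71, 0.66, 0.46, 0.49, 1.43, 1.06 and 1.17 in the same order, and all 7 passed. With replicate 2 as the only *WT* vehicle library, where the spread comes from the other groups, it was 0.99, 0.70, 0.96, 0.27, 1.14, 1.43 and 1.05, and *Adamts8* did not pass (adjusted p = 0.087). *Adamts8* did not pass in 10 of 18 other settings.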

How the results depend on the processing

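No called member changed direction in 19 other fits (18 for the interaction). Per 1000 *Pdgfra* counts, a description with no test, *Adamts2*, *Adamts4*, *Adamts10*, *Adamts12*, *Adamts14* and *Adamts15* turned from lower to higher in *WT* bleo, *Adamts2* did so in *Pear1-/-* bleo, and *Adamts8* turned from higher to lower in *Pear1-/-* against *WT* after bleo. With a fold change over 2 required as well, 6 members were lower in *WT* bleo, 1 was higher and 3 lower in *Pear1-/-* bleo, 2 were higher in *Pear1-/-* than in *WT* after bleo, and 3 had an interaction above 0. Leaving out each library in turn gave 8 to 9 members lower in *WT* bleo, 4 higher and 6 lower in *Pear1-/-* bleo, 7 to 8 higher in *Pear1-/-* after bleo and 6 to 8 interactions above 0. Of 17644 to 20453 genes tested, 11228 to 15591, 10271 to 13868, 6450 to 10040 and 5346 to 9458 were called in either direction, in the same order. Without *Pear1-/-* bleo replicate 1, which is not in that comparison, the members' values in *WT* after bleo shifted by a median of 0.04. The part of the changed gene set in lost calls was not tested. Between the vehicle groups leaving out each library gave 0 to 3 members higher and 0 to 4 lower. The 3 and 4 came without *WT* vehicle replicate 2, where 11258 of 20405 genes were called. Without any of the other 11 libraries 0 genes were called there. Of 940 values of single members in those fits, which leave out the stricter thresholds and the ratio, 890 kept their side of the threshold, 41 lost it and 9 gained it. The replicate numbers showed no pairing of the libraries, as none of 18 same-number pairs had a correlation of deviations over 0.1 (-0.16 to 0.0997). In every other group at once, 0 of 12 libraries correlated best with their own number. Unpaired and paired libraries alike can miss that strict condition, so this count does not decide it. With the replicate block 9 members were lower in *WT* bleo, where *Adamts4* did not pass (-0.26, adjusted p = 0.052), and no other member's call changed. Without the filter the members' values in *WT* after bleo shifted by a median of 0.13 on the log2 scale. Depth limits *Adamts9*, *Adamts12* and *Adamts14*, which had 52 to 204 counts in a library.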
